A study of Mus musculus with 6 samples.

Results

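Dual specificity MAP kinase phosphatases remove phosphate from both the threonine and the tyrosine that switch a MAP kinase on. The transcripts of 8 of them, Dusp1, Dusp2, Dusp4, Dusp5, Dusp6, Dusp7, Dusp10 and Dusp16, were read by symbol from a table of 47643 genes, and all 8 were found there. The table held 6 RNA sequencing libraries of thymic NKT1 cells from wild-type BALB/c mice, 3 of CD4-positive and 3 of CD4-negative cells sorted by flow cytometry. NKT1 cells are the T-bet-expressing subset of invariant natural killer T cells, which recognise lipids on CD1d through a nearly fixed T cell receptor. The groups differed by the CD4 sort, and no treatment, age or number of animals is stated. Levels are CPM, counts scaled to the depth of each library, after TMM, a factor per library that evens out composition. Differences are log2, CD4-positive minus CD4-negative, and means carry the SD with n = 3 per group.

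As background, the T cell receptor activates the MAP kinases ERK, JNK and p38, and the phosphatases limit how long each stays active. Dusp1, Dusp2, Dusp4 and Dusp5 encode inducible nuclear enzymes, and several of them are themselves immediate early genes, transcribed within minutes of a stimulus. Dusp6 and Dusp7 encode cytoplasmic enzymes selective for ERK, and Dusp10 and Dusp16 encode enzymes that prefer JNK and p38. In T cells the ERK pathway runs from the receptor through RasGRP1, Ras, Raf and MEK.

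The 8 genes lie on 8 chromosomes. In the GENCODE M21 annotation of GRCm38, the nuclear group is Dusp1 at chr17:26505590-26562128 (minus strand), Dusp2 at chr2:127336159-127338376 (plus strand), Dusp4 at chr8:34807297-34819894 (plus strand) and Dusp5 at chr19:53529109-53542431 (plus strand). The cytoplasmic pair is Dusp6 at chr10:99263231-99267489 (plus strand) and Dusp7 at chr9:106368632-106375724 (plus strand). The JNK and p38 pair is Dusp10 at chr1:184013302-184075636 (plus strand) and Dusp16 at chr6:134715468-134792625 (minus strand). The span of Dusp1 runs over 6 annotated transcripts and reaches well upstream of the RefSeq start used for its promoter below.

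The promoters of Dusp1 and Dusp5 are shown because these members stood high together in the same libraries, as described below. They are RefSeq sequences (GRCm38.p6) from 250 bases before to 50 bases after the annotated start, at chr17:26508423-26508722 on the minus strand for Dusp1 and at chr19:53528895-53529194 on the plus strand for Dusp5. Each is written 5′ to 3′ on the gene's strand, with capitals marking cyclic AMP response element cores (TGACG on either strand) and CArG boxes, the binding motif of serum response factor.
Dusp1: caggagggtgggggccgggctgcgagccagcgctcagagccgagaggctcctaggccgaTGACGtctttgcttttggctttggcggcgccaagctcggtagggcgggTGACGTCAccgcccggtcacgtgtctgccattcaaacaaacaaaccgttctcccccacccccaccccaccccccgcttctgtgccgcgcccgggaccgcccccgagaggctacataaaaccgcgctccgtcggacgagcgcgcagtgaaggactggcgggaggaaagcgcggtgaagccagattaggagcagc
Dusp5: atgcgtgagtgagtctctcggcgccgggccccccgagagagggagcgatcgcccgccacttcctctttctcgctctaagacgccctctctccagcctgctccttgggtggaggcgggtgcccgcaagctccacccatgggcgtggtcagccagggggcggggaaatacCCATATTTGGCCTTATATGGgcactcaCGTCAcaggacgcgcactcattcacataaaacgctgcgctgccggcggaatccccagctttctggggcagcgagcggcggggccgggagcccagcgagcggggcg
The Dusp1 promoter held the full element TGACGTCA, whose first base lies 143 bases before the start, and a further core 191 bases before it. The full element is its own reverse complement and so counts as a core on each strand. The Dusp5 promoter held 1 core, 55 bases before the start, and 2 CArG boxes side by side, with first bases 82 and 72 bases before it. Of 32851 promoters of this length, 1.79% held the full element, 20.8% a core and 1.63% a CArG box. Of the 7 members with a promoter in the table, which lacked Dusp4, 4 held a core (Dusp1, Dusp2, Dusp5 and Dusp16), 1 the full element and 1 a CArG box. None of the 7 held an AP-1 site (TGACTCA or TGAGTCA on either strand), which 5.20% of promoters held. The search also covered NF-kB sites, Egr sites and the TATA box, which 0 of 7 held (5.81%, 0.612% and 13.6% of promoters). A heat shock element was in 1, Dusp16, and a CCAAT box in 4, Dusp6, Dusp7, Dusp10 and Dusp16. Of all promoters 7.86% and 37.4% held these. The motifs were chosen after the levels were seen, and these are letter matches within the windows and not measured sites.

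The libraries held 40480463 to 53145848 counts. Cd4, which checks the sort, stood at 508, 401 and 450 CPM in CD4-positive replicates 1, 2 and 3 and at 15.98, 10.9 and 41.2 CPM in the CD4-negative ones. CD4-negative replicate 3 stood apart, with a score of -90.2 on a first principal component where the other libraries lay between -2.31 and 32.2. It and CD4-positive replicate 1 had 1.33% and 1.35% of their counts on mitochondrial genes, where the other libraries had 3.51% to 5.19%. The replicate 1 libraries held 466 (CD4-positive) and 523 (CD4-negative) counts over 4 Y-linked genes, where no other library had more than 1, and Xist, transcribed from the inactive X of females, stood at 119 to 178 CPM in all 6. T-bet, Zbtb16, CD3 and the other NKT1 markers were all detected, at summed levels of 3185 to 3873 CPM. Of markers of other cells, the 5 B cell genes summed to 0.35 to 2.43 CPM, with Pax5 at 0 in every library. The 5 myeloid genes summed to 90.3 to 175 CPM, nearly all of it Cst3, while the myeloid gene Lyz2 was at or below 0.90 CPM. Immature thymocyte genes summed to 13.7 to 23.2 CPM in replicates 1 and 2 and to 69.6 and 61.8 CPM in the replicate 3 libraries. Genes of 2 other T cell kinds, regulatory T cells (3 genes) and NKT17 cells (4 genes), summed to 16.5 to 44.2 and to 0.50 to 3.99 CPM. The 5 NK cell genes, which NKT1 cells share in part, summed to 71.8 to 89.7 CPM among CD4-positive and to 183 to 192 CPM among CD4-negative libraries.

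None of the 8 phosphatases passed the test for a difference between CD4-positive and CD4-negative NKT1 cells. Dusp16 had the smallest p, with a mean of 10.3 ± 1.59 CPM among the CD4-positive and of 8.10 ± 1.98 CPM among the CD4-negative libraries. By edgeR's quasi-likelihood test 0 of 8 passed at an adjusted p under 0.05, 0 had an unadjusted p under 0.05, and 0 passed by limma-voom. By DESeq2 0 passed of the 7 that it gave an adjusted p, which Dusp1 lacked. Over all 12760 genes tested, 0.212% passed (0.0705% higher and 0.141% lower in CD4-positive cells) and 4.44% had an unadjusted p under 0.05. The groups overlapped for all 8 members, while 9.41% of tested genes had groups that did not overlap. The median log2 difference was 0.06 over the 8 members and -0.01 over all tested genes. What the libraries did show was a wide spread of 3 members between replicates, which both groups shared.

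**Figure D1:**
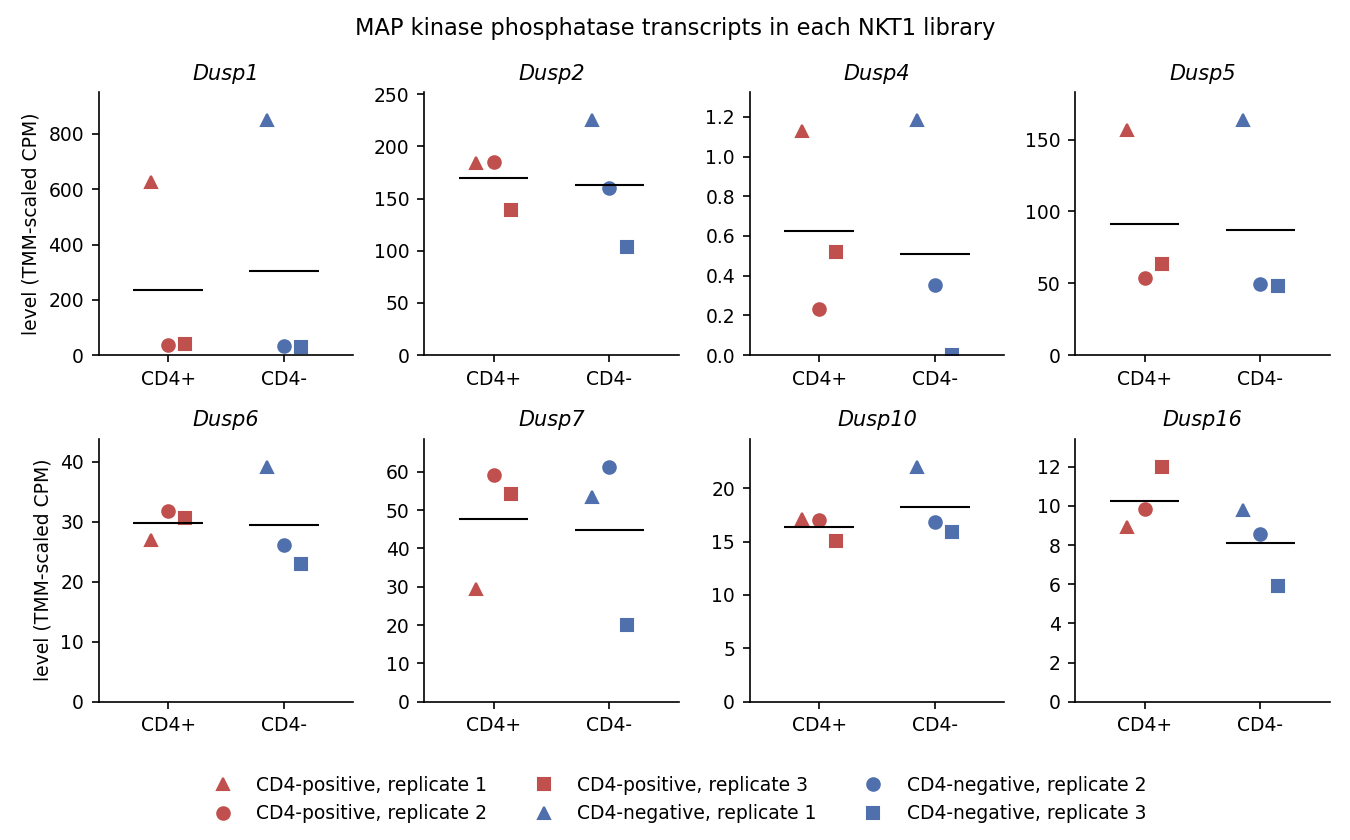
Level (TMM-scaled CPM, linear axes from 0) of each of the 8 phosphatase transcripts in every library, with triangles, circles and squares for replicates 1, 2 and 3 and a line at the mean of each group of 3. For Dusp1, Dusp4 and Dusp5 the replicate 1 library is the highest of both groups, while Dusp7 is lowest in CD4-positive replicate 1 and CD4-negative replicate 3.

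Dusp1, the inducible nuclear phosphatase that acts on ERK, JNK and p38, stood at 626, 36.9 and 42.0 CPM in CD4-positive replicates 1, 2 and 3. In CD4-negative replicates 1, 2 and 3 it stood at 849, 34.5 and 28.5 CPM. The replicate 1 library was far above the other two in both groups, and the remaining 4 libraries lay close together. The CD4-positive replicate 1 value was 15.9 times the mean of replicates 2 and 3, and the CD4-negative one 27.0 times. The lower of the replicate 1 libraries was 14.9 times the highest other library. The group difference of -0.37 had an SE of 1.52 (edgeR, adjusted p = 0.99999), so that 2 SE either side run from -3.42 to 2.67. This fit has no term for the replicate number, so its SE takes in the rise in replicate 1 that both groups shared. With such a term the difference was 0.07. Without both replicate 1 libraries it was 0.33, with 2 libraries a group.

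Dusp5, which encodes a nuclear phosphatase selective for ERK, stood at 157, 53.4 and 63.3 CPM in the CD4-positive and at 163, 49.3 and 47.8 CPM in the CD4-negative libraries. Replicate 1 was again the highest of each group, 2.69 and 3.37 times the mean of the other two, and the groups overlapped. The difference was 0.07 (SE 0.59), with 2 SE bounds of -1.11 and 1.25. Without both replicate 1 libraries it was 0.27, and with a term for the replicate number 0.15.

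Dusp4, which encodes a nuclear phosphatase known to act on ERK, was barely detected. It had 55, 12 and 27 counts in the CD4-positive and 55, 19 and 0 counts in the CD4-negative libraries, or at most 1.18 CPM. A count of 0 in CD4-negative replicate 3 allows up to 3 counts, or 0.0741 CPM of that library's total, by counting error only. Its replicate 1 libraries were the highest of both groups, the lower of them 2.17 times the highest other library. The difference was 0.28 (SE 1.22), with 2 SE either side running from -2.16 to 2.73. It was 1.04 without both replicate 1 libraries and 0.81 with a term for the replicate number.

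Dusp2, which encodes the remaining inducible nuclear phosphatase and acts on ERK and p38, did not share this pattern. It stood at 184, 185 and 139 CPM in the CD4-positive libraries and at 225, 160.5 and 103 CPM in the CD4-negative ones. The CD4-negative libraries were spread more widely, with replicate 1 highest and replicate 3 lowest, and the CD4-positive values fell within their range. The difference was 0.05 (SE 0.29), with 2 SE either side running from -0.52 to 0.63.

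Dusp6, which encodes a cytoplasmic ERK phosphatase and is a widely used readout of ERK activity, stood at 26.9, 31.8 and 30.5 CPM in CD4-positive and at 39.1, 26.1 and 22.9 CPM among CD4-negative libraries. All 3 CD4-positive values lay inside the range of the CD4-negative ones. Its difference of 0.02 (SE 0.23) has 2 SE bounds of -0.44 and 0.47.

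Dusp7, the other cytoplasmic ERK phosphatase, stood at 29.5, 59.2 and 54.3 CPM in CD4-positive and at 53.3, 61.3 and 19.9 CPM among CD4-negative libraries. The low libraries were CD4-positive replicate 1 and CD4-negative replicate 3, the pair with the smallest share of mitochondrial counts. The part of that share in the level of Dusp7 was not tested. Both of these libraries lay below all 4 others for 22.4% of tested genes, so this pattern is common in the data. The group difference was 0.09 (SE 0.44), with 2 SE bounds of -0.78 and 0.96, and -0.26 without CD4-negative replicate 3.

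Dusp10 and Dusp16, the phosphatases that prefer JNK and p38, were low. Dusp10 stood at 17.1, 17.0 and 15.1 CPM in CD4-positive and at 22.0, 16.8 and 15.9 CPM among CD4-negative libraries (log2 -0.16, SE 0.18, with 2 SE bounds of -0.52 and 0.21). Only CD4-negative replicate 1 lay apart from the rest. Dusp16 stood at 8.90, 9.85 and 12.0 CPM in CD4-positive and at 9.79, 8.58 and 5.92 CPM among CD4-negative libraries (log2 0.34, SE 0.24, adjusted p = 0.99999). With 2 SE either side that difference runs from -0.15 to 0.83. The lowest value was that of CD4-negative replicate 3, and without that library the difference was 0.16.

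**Figure D2:**
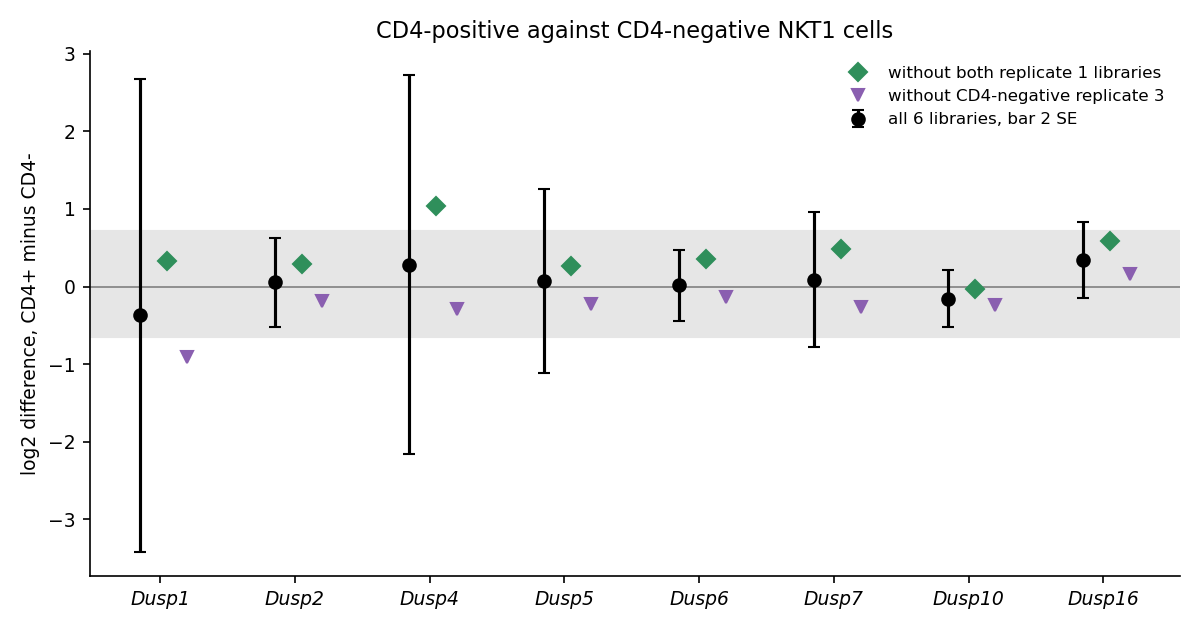
Log2 difference, CD4-positive minus CD4-negative, of each phosphatase with all 6 libraries (points, with bars of 2 SE) and with both replicate 1 libraries or CD4-negative replicate 3 left out. The grey band holds the middle 90% of all tested genes, from -0.65 to 0.72. Every bar crosses 0, and those of Dusp1 and Dusp4 are the longest. The fit behind the bars has no term for the replicate number.

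The spread between libraries set Dusp1 apart from the other members whose mean reached 5 CPM. Dusp4, with a mean of 0.57 CPM and libraries from 0 to 1.18 CPM, was left out of this comparison. Taking the 9175 tested genes whose mean reached 5 CPM, the median ratio of the highest to the lowest library was 1.61 (with 0.1 CPM added to both). For Dusp1 it was 29.7, and 16 genes had a wider one. It was 3.41 for Dusp5, 3.07 for Dusp7, 2.18 for Dusp2, 2.01 for Dusp16, 1.71 for Dusp6 and 1.46 for Dusp10. Dusp10 was thus narrower than most genes, with 65.4% of them at least as wide.

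The pattern of high replicate 1 libraries was looked for in all genes after it was seen in Dusp1, and is given as a description with no test. Both replicate 1 libraries were at least 2-fold above every other library for 3 of 8 members (Dusp1, Dusp4 and Dusp5) and for 40 of 12760 tested genes (0.313%). They were above every other library by any margin for 4 of 8 members, Dusp10 included, and for 3.95% of tested genes. They were at least 2-fold below every other library for 0 of 8 members and for 0.118% of tested genes. At 5-fold there were 12 genes (0.094%), Dusp1 the sole member among them. At 10-fold there were 3 genes (0.0235%), Dusp1 again among them, the others being the stress-induced transcription factor Atf3 and the kinase Plk2. Atf3 went from between 0.17 and 0.64 CPM in the 4 other libraries to 16.5 CPM in CD4-positive replicate 1 and 16.9 CPM in CD4-negative replicate 1. Of the 27 immediate early genes listed, all tested, 8 were among the 40: Fos, Fosb, Jun, Junb, Atf3, Nr4a1, Zfp36 and Klf4. Of 9 heat shock genes 2 were, Hspa1a and Hspa1b, which are near-identical copies whose reads may be split between them. Egr2, an immediate early gene downstream of the T cell receptor, was not: it stood at 32.1, 33.7 and 35.7 CPM in CD4-positive and at 18.1, 18.2 and 17.9 CPM among CD4-negative libraries, with little spread within a group (log2 0.91, SE 0.14, edgeR adjusted p = 0.0706, 0.000468 by DESeq2). By any margin, both replicate 1 libraries stood above every other library for 16 of the 27 immediate early genes, beside 3.95% of all tested genes. Egr1 was among the 16, at 156 and 123 CPM in CD4-positive and CD4-negative replicate 1 and at 34.2 to 92.4 CPM elsewhere. The meaning of the replicate number is not stated, and what the replicate 1 libraries share cannot be told apart from it. Of the marker sums given above, those of the B cell, myeloid, immature thymocyte, regulatory T cell and NKT17 genes lay within the range of the other libraries. The NK cell sum was the lowest of all in CD4-positive replicate 1 (71.8 CPM) and the highest in CD4-negative replicate 1 (192 CPM), and the NKT1 sums of both (3200.5 and 3185 CPM) lay below those of the other libraries (3307 to 3873 CPM). The summed immediate early genes stood at 3674, 1998 and 1990 CPM in CD4-positive replicates 1, 2 and 3 and at 5353, 2102 and 1482 CPM in CD4-negative ones. The heat shock genes summed to 7096, 4273 and 3335 CPM and to 7128, 4296 and 4378 CPM in the same order. The part of these genes, and that of the Y-linked counts, in the level of Dusp1 was not tested. In such bulk samples, more cells that carry a transcript and more transcript per cell cannot be told apart.

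**Figure D3:**
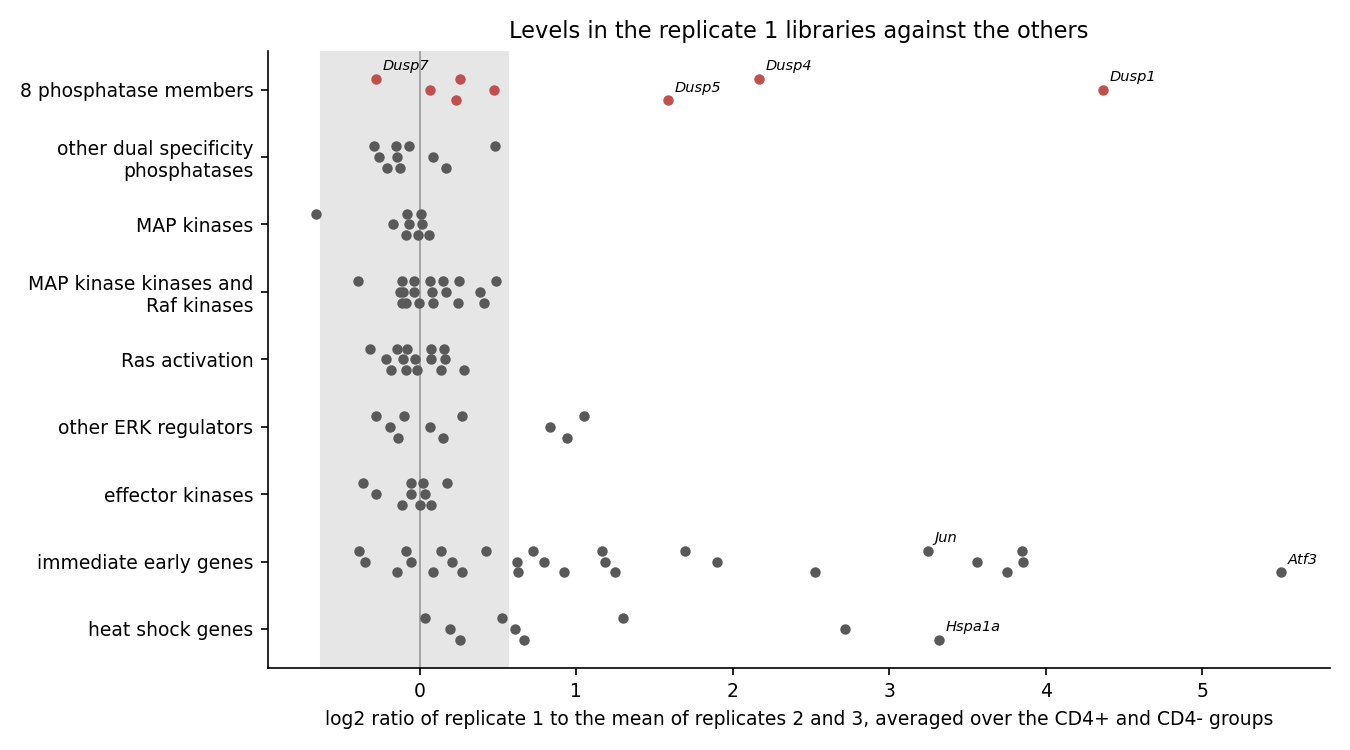
Log2 ratio of the replicate 1 library to the mean of replicates 2 and 3, averaged over the CD4-positive and CD4-negative groups, for each tested member (red) and each tested gene of the pathway lists (grey), one row of points per list. The shaded band holds the middle 90% of all genes with a ratio, from -0.63 to 0.56; Dusp1 (4.37), Dusp4 (2.17, with 1 library at 0 in its mean) and Dusp5 (1.59) lie to the right with many immediate early and heat shock genes, while the kinases of the cascade lie within the band, apart from the low-expressed Mapk12 (-0.66).

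The genes most like a member over the 6 libraries were found by the root mean square difference of log2 CPM after each gene was centred on its own mean. For Dusp1 they were Fosb (0.41), Nr4a1 (0.50) and Fos (0.53), where the median over 9168 genes was 2.09. For Dusp5 they were Socs3, an inhibitor of cytokine signalling (0.09), Frat2 (0.14) and the transcription factor Bhlhe40 (0.18), against a median of 0.80. Socs3 stood at 81.0, 23.0 and 32.4 CPM in CD4-positive and at 84.4, 24.7 and 23.0 CPM among CD4-negative libraries, again high in replicate 1. For Dusp2 they were Abcd4 (0.09), Rfxap (0.09) and Rnf214 (0.10), against a median of 0.42. Among the members, Dusp6 and Dusp10 were closest to each other (0.17) and Dusp1 and Dusp7 farthest apart (2.19).

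Between genes, levels are compared per kilobase of exon. By the median over the 6 libraries the order of CPM per kilobase was Dusp2 (86.0), Dusp5 (23.6), Dusp7 (16.03), Dusp1 (11.9), Dusp6 (9.16), Dusp10 (5.56), Dusp16 (1.20) and Dusp4 (0.16). The ranges over libraries overlapped between Dusp2 and Dusp5, between Dusp7 and Dusp1 and between Dusp1 and Dusp6, and did not overlap between the other neighbours. Within each library, though, Dusp2 stood above Dusp5. With the longest transcript as the length Dusp1 (17.1) came before Dusp7 (16.7), so their order is not settled. By the mean over the 6 libraries, Dusp1 (81.4) came directly after Dusp2 (83.0) and before Dusp5 (36.0), so the place of Dusp1 depends on the measure. The make-up depended on the replicate. Dusp1 was 51.2% and 54.3% of the summed CPM per kilobase of the 8 members in the CD4-positive and CD4-negative replicate 1 libraries and 6.98% to 9.04% in the 4 others. Dusp2 was 24.9% and 23.8% in replicate 1 and 49.5% to 57.8% in the others, where it led.

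**Figure D4:**
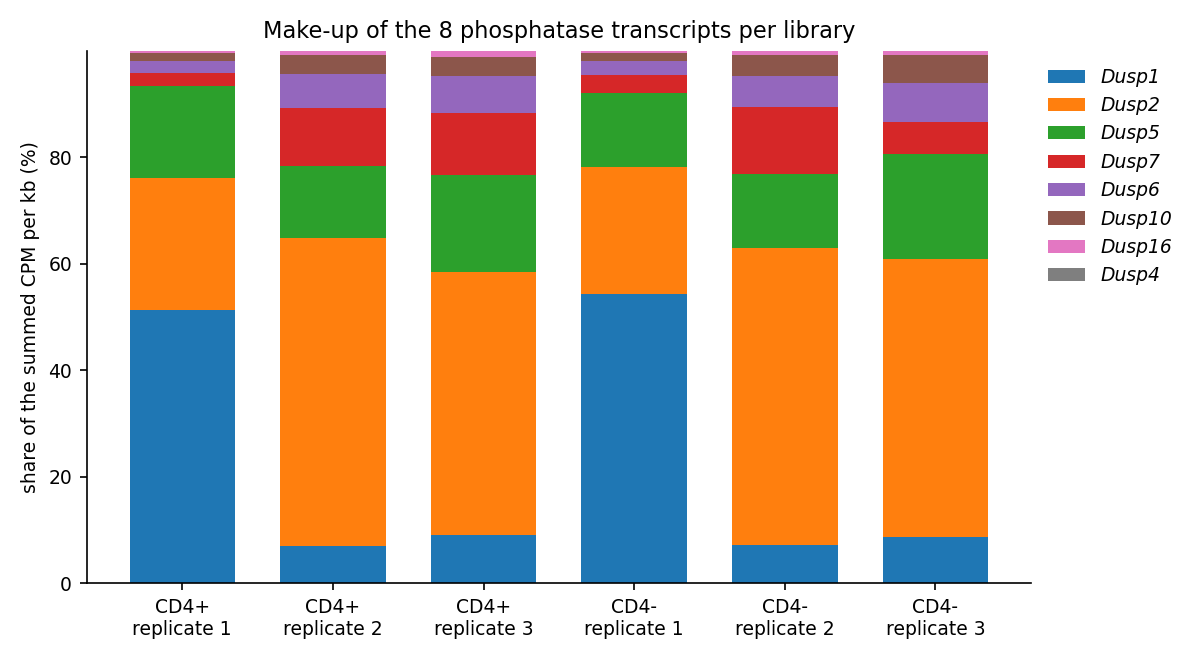
Share of each phosphatase in the summed CPM per kilobase of exon of the 8 members, as stacked bars per library (percent, from 0 to 100). Dusp1 (bottom) takes 51.2% and 54.3% of the bar in the replicate 1 libraries, and Dusp2 (second from the bottom) 49.5% to 57.8% in the other 4.

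Among the other dual specificity phosphatases no gene passed either. Of 18 listed, 10 were tested and 0 passed, 5 were at 0 in every library, and none was among the 40 genes high in replicate 1. Dusp3, which encodes the small phosphatase VHR that acts on ERK and JNK, had the smallest p of them. It stood at 6.99, 8.42 and 6.55 CPM in CD4-positive and at 11.3, 11.1 and 20.3 CPM among CD4-negative libraries (log2 -0.96, SE 0.28, adjusted p = 0.574), with groups that did not overlap. Without CD4-negative replicate 3 the difference was -0.61. Its counts were fractional in all 6 libraries, so its level rests in part on reads that were assigned by estimate. Dusp12 stood at 9.61 ± 0.09 against 12.1 ± 1.28 CPM (log2 -0.33, SE 0.17). The median over the 10 was 0.04, and groups did not overlap for 3 of them, beside 9.41% of all tested genes.

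Of the kinases that the phosphatases act on, 9 of 12 MAP kinases were tested and 0 passed. Mapk7 (ERK5) was at 15.5 ± 2.10 CPM among CD4-positive and 18.3 ± 0.45 CPM among CD4-negative libraries, and Mapk12 (p38 gamma) at 0.16 ± 0.06 and 0.40 ± 0.35 CPM. The difference in Mapk12 was -1.26 (SE 0.83), and -0.26 without CD4-negative replicate 3. None of 19 MAP kinase kinases and upstream kinases passed. Map3k8 (Tpl2) was at 5.71 ± 1.67 and 7.67 ± 3.13 CPM, and Map2k2 (MEK2) at 84.7 ± 13.6 and 99.9 ± 26.2 CPM. None of 15 genes of Ras activation passed. Among them the Ras GTPase activators Rasa1 and Rasa3 had differences of 0.60 (SE 0.33) and -0.59 (SE 0.34), which were 0.29 without CD4-negative replicate 3 and -0.35 without CD4-positive replicate 1. None of 10 effector kinases passed, with Mapkapk5 at -0.35 (SE 0.18) and Rps6ka2 at 0.84 (SE 0.66), or 0.43 without CD4-negative replicate 3. None of the genes tested in these 4 lists was among the 40 high in replicate 1. The median log2 difference was 0.05 over the MAP kinases, 0.02 over the kinases upstream, -0.01 over the Ras genes and 0.10 over the effector kinases, beside -0.01 over all tested genes. Groups did not overlap for 2, 0, 1 and 0 of their genes, beside 9.41% of all tested genes.

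Among 10 tested genes of a list of other ERK regulators 1 passed, Lgals3, which fell by 1.63 on the log2 scale (SE 0.18, edgeR adjusted p = 0.0298). Lgals3 encodes galectin-3, a sugar-binding protein that in human cells is known to stabilise active K-Ras, and is not a feedback inhibitor. Its call did not hold when any library other than CD4-negative replicate 3 was left out (adjusted p 0.0641 to 0.212), while the difference stayed between -1.74 and -1.54 without any 1 library. It stood at 21.1, 16.8 and 19.5 CPM in CD4-positive and at 61.7, 49.7 and 66.5 CPM among CD4-negative libraries. Of the feedback inhibitors in the list, Spry2 was at 250.1, 114 and 81.1 CPM and at 234, 144 and 180.0 CPM in these groups, with replicate 1 highest in each. Of the 10 tested genes of the list, 1 had both replicate 1 libraries above every other library, and 0 had them 2-fold above. Spred1 went the other way, with replicate 1 lowest in each group. It was at 8.29, 11.1 and 10.8 CPM in CD4-positive and at 11.2, 12.5 and 12.5 CPM in CD4-negative libraries. Of 27 immediate early genes none passed, Egr2 having the smallest p, followed by Egr3 at 20.2 ± 8.16 against 9.45 ± 2.56 CPM (log2 1.10, SE 0.35, adjusted p = 0.727). Of 9 heat shock genes none passed. Hspe1 was at 118 ± 26.0 against 142 ± 52.1 CPM, and Hspa1b at 581, 126 and 111 against 1072, 173 and 69.0 CPM, with replicate 1 highest in both groups. The median difference was -0.15 over the ERK regulators, -0.06 over the immediate early genes and -0.15 over the heat shock genes. Groups did not overlap for 3, 3 and 0 of the genes in these lists, beside 9.41% of all tested genes.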

How the data were processed

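Polyadenylated RNA of 6 libraries was sequenced in paired ends on a HiSeq4000 with a stranded kit, per the labels' protocols. The authors deposited estimated counts per gene, not normalised; STAR, Picard, RSEM and the build mm10 are named in the submitters' processing notes, without versions or roles. Neither the annotation nor the strand setting of the counting is given in the sources used here. Columns were matched to samples by library name. Expected counts were rounded. The counts of the 8 members were whole in every library (within 1e-06). Dusp1, Dusp10 and Dusp16 overlap annotated genes on the other strand, so reads from both strands cannot be told apart if counting ignored strand.

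Genes kept by filterByExpr (12760) were fitted with edgeR 4.0.16 in R 4.3.3: TMM scaling and a robust quasi-likelihood F test with group as the sole term, Benjamini-Hochberg adjustment at 0.05. SEs come from the F statistic. The alternatives comprised DESeq2 1.42.0, limma-voom (limma 3.58.1), scaling by RLE or upper quartile, other filters, the replicate number as a block, a term for the 2 ways in which libraries are named (replicate 3 differs) and each library left out; leaving out both replicate 1 libraries and a test of the replicate term were added after seeing the data. The fits were first run on simulated counts, with 1 dispersion (0.0994) for all genes and no replicate effect. That setting lacks the rise in replicate 1 seen here, so it cannot show how the tests perform for genes such as Dusp1. Log2 CPM for likeness and components used a prior count of 2. Lengths and coordinates come from GENCODE M21 (GRCm38), and promoters from RefSeq. Where a symbol had several rows, that with the highest mean was used.

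The members and lists were chosen with earlier results of these data known. Named genes are the 8 members, Cd4, the genes of each list past the test or else the 2 with the smallest p (marker lists are given as sums), and the 3 genes most like each of the 3 members with the highest mean. Genes high in replicate 1, Socs3 values, Spry2 and Spred1 were named after their values were seen. The labels do not say whether replicates are separate animals. Y-linked counts show cells of male mice in the replicate 1 libraries and at most 1 count elsewhere, so these do not share all their animals with the others; the spread between replicates 2 and 3 may be technical, and every p rests on the spread between these libraries only. 1 count was worth 0.0188 to 0.0247 CPM. Values of some single marker genes are not reported here.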

Additional observations from a re-analysis of the deposited data

How the results depend on the processing

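None of the 8 phosphatases passed the test under any of the 15 alternatives that gave it an adjusted p (14 for Dusp4, which 1 filter removed, and 14 for Dusp1, for which DESeq2 gave none), with values from 0.954 to 0.999998. The sign of the difference was kept under all 15 by Dusp16 (0.16 to 0.59) and did not hold for the others. Dusp1 changed to 0.0653 by limma-voom and to 0.0699 with the replicate block, and leaving out 1 library moved it from -2.95 (without CD4-positive replicate 1) to 2.90 (without CD4-negative replicate 1). Leaving out 1 library gave -0.18 to 0.36 for Dusp2, -0.45 to 1.77 for Dusp4, -0.57 to 0.91 for Dusp5, -0.13 to 0.28 for Dusp6, -0.26 to 0.38 for Dusp7 and -0.24 to 0.0038 for Dusp10. Without both replicate 1 libraries, Dusp1 stood at 0.325 and the others between -0.03 (Dusp10) and 1.04 (Dusp4). For other genes named or listed as markers, leaving out 1 library gave -0.37 to 0.0024 for Map2k2, -0.45 to 0.0708 for Hspe1, -1.88 to 1.17 for Hspa1b, -1.47 to 1.88 for Rag1 and -0.86 to 0.60 for Foxp3 (0.0654 by limma-voom, 0.521 without both replicate 1 libraries). These are differences in log2. With the longest transcript as the length, 2 of the 8 members changed place in the order of levels. Over all genes edgeR called 27, DESeq2 162, edgeR without a filter on low counts 67, with the naming scheme as a batch term 11 and with the replicate block 0. Leaving out 1 library gave 0 to 44 calls, 44 without CD4-negative replicate 3 and 0 without any other library, and leaving out both replicate 1 libraries gave 0; the cause of these changes was not tested. Lgals3 kept its direction and size (-1.74 to -1.54), and its adjusted p was 0.115 with the replicate block, 0.0582 with the naming scheme, 0.0641 to 0.212 without 1 library other than CD4-negative replicate 3 and 0.460 without both replicate 1 libraries. Cd4 likewise kept its direction (3.99 to 5.08), with adjusted p up to 0.428. The same-numbered libraries' deviations from their group means correlated at -0.0798, 0.343 and 0.0362 for numbers 1, 2 and 3 over the tested genes. The main fit took no pairing, but a correlation over all genes cannot decide whether same-numbered libraries share a source. Y-linked counts were found in both replicate 1 libraries (466 and 523). Both replicate 3 libraries shared a naming scheme and had the highest immature thymocyte sums (69.6 and 61.8 CPM). In the fit with the replicate block, the replicate number itself had an adjusted p under 0.05 for 0 of 12760 genes (613 at an unadjusted p under 0.05); its smallest adjusted p among the members was 0.0933, for Dusp1, and that of Dusp5 was 0.244. Dusp4 had the fewest counts of the members, 0 to 55 per library; the part of depth in its SE was not tested.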

Other observations

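Of the 40 genes at least 2-fold higher in both replicate 1 libraries than in every other library, 3 are phosphatases, 8 immediate early genes and 2 heat shock genes of the lists. The following 4 of the others were picked after their values were seen, and stand for no group. Ppp1r15a, which encodes a phosphatase subunit of the integrated stress response, stood at 453 and 397 CPM in CD4-positive and CD4-negative replicate 1, against 41.2 to 50.7 CPM elsewhere. Tnfaip3, which encodes A20, an inhibitor of NF-kB signalling, stood at 386 and 630 CPM against 39.7 to 83.7 CPM. Nfkbia, which encodes another inhibitor of NF-kB, stood at 210 and 193 CPM against 84.1 to 94.6 CPM. Sik1, a salt-inducible kinase, stood at 43.5 and 32.3 CPM against 2.33 to 3.93 CPM.

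The genes nearest to Dusp7 by the same measure were Syvn1 (0.04), Zswim6 (0.05) and Prex1 (0.07), a search added after the values of Dusp7 were seen. Prex1 stood at 315, 654 and 541 CPM among CD4-positive and at 596, 659.6 and 232 CPM among CD4-negative libraries, lowest in the same pair of libraries as Dusp7.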
